A study of Drosophila melanogaster with 3 samples.

Results

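EcR, usp and tai encode the ecdysone receptor, its heterodimer partner ultraspiracle and the coactivator taiman. They were chosen by name, and their peaks by position. A peak was counted when its summit, the base of strongest signal, lay in the gene body or within 2000 bp of it in the Ensembl models on dm6. Of the 5056 reproducible peaks, 15 met this rule, with 6 at EcR, 3 at usp and 6 at tai. The 6 chromosome arms with peaks hold 13945 protein-coding genes, the 3 included. The study mapped CG4318 protein fused to eGFP, an enhanced green fluorescent protein, on the chromatin of whole Drosophila melanogaster prepupae by ChIP-seq. All 3 biological replicates belonged to 1 group, strain CG4318-GFP, a stable transgenic line whose CG4318 carries the eGFP tag at its C-terminus, with males and females pooled and the immunoprecipitation done against GFP. The age on the labels, 48 days, does not match the prepupal stage and was not used. What drives the fusion gene is not given in the sources used here, and a signal from whole animals cannot be assigned to a cell type.

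Ecdysone is the steroid hormone that times insect moulting and metamorphosis. EcR binds the hormone and, paired with usp, a relative of the vertebrate retinoid X receptors, sits on DNA as a heterodimer that switches early response genes on. Taiman, a p160-type coactivator, joins the hormone-bound receptor, and pulses of the hormone begin and end the prepupal stage.

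The files hold peak lists without read counts, so the depth of the libraries is unknown. Each replicate list and the pooled list held 30000 candidate regions, and the reproducible list held 5056. A region's strength is the authors' signal score, on a scale that is not stated. Scores were therefore read only within 1 list, and lists were set side by side by rank. Rank 1 is the strongest region, and a replicate's top list means its 5056 strongest regions. Scores of the reproducible peaks spanned 108.7 to 2606. All 15 peaks at the 3 genes were the identical region in the pooled list, with the same score and rank.

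The 101 bases around 4 summits are printed because they hold the strongest peak at the 3 genes, its strong neighbour with the longest uninterrupted run of A and T, the peak before the usp start site, and the peak whose base composition differs from all the others. They were read from RefSeq's Release 6 reference assembly (dm6), forward strand, 5′ to 3′, with the summit at the middle base. Capitals mark the longest run of A and T in each.
tai, strongest summit, chr2L:9207272-9207372: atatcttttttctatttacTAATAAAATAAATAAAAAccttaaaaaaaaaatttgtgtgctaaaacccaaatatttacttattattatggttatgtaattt
tai, neighbouring summit, chr2L:9206470-9206570: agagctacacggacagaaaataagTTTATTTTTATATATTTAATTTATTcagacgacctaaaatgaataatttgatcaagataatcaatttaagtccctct
usp, summit before its first start site, chrX:2042449-2042549: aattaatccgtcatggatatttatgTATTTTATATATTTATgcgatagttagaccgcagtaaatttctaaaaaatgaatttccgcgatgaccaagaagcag
tai, most distal summit, chr2L:9224645-9224745: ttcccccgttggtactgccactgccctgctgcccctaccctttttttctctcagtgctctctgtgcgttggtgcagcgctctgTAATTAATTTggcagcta
The run measured 18 bases at the strongest tai summit, 25 at its neighbour, 16 at usp and 10 at the distal tai summit. The neighbour and the usp summit each held a match to the TATA box sequence TATAAA, read on either strand, inside the marked run. The usp summit lay 188 bp upstream of the usp-RB start. The neighbour lay in an intron, 30162 bp downstream of the nearest start site. Whether these matches act as promoter elements was not tested. The distal tai summit held GAGAG, the motif of GAGA factor.

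EcR, the hormone-binding subunit, carried 6 reproducible summits, and all of them lay inside its gene body. The gene (FBgn0000546, 2R, 6087873 to 6169087, minus strand) has 4 start sites for 6 annotated transcripts, and transcripts from the upstream and the internal start sites encode receptor isoforms that differ at the amino terminus. The summits formed a pair before the start site of EcR-RD and EcR-RE, a cluster of 3 before the internal start site of EcR-RB and EcR-RC, and 1 further summit in the body of the gene. The most upstream start site, that of EcR-RA, had its nearest summit 11347 bp away.

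The strongest EcR peak belonged to the cluster before the internal start site. Its summit at 6134729 lay 2807 bp upstream of the start of EcR-RB and EcR-RC, in intron 3 of EcR-RA, and had a signal score of 382 at rank 855. Replicate 1 gave this region a score of 183 at rank 691, replicate 2 gave 115 at rank 1277, and replicate 3 listed no region there. The next summit, 675 bp away at 6134054, was the reverse case, since it was weaker in the reproducible list and was the 1 EcR peak that every replicate listed. Its score was 237 at rank 1892, with 109 at rank 1722 in replicate 1, 81.8 at rank 2255 in replicate 2 and 64.8 at rank 1358 in replicate 3. The third summit of the cluster, at 6132545 and 623 bp upstream of the same start site, scored 238 at rank 1880. Replicate 1 ranked it 2395 and replicate 2 ranked it 1941, while replicate 3 did not list it. The annotated start nearest to the strongest of these peaks was that of CG14589, a small gene inside the EcR intron, 2574 bp away.

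At the start site of EcR-RD and EcR-RE, 2 summits lay 203 bp apart in overlapping regions, inside intron 1 of EcR-RA. The nearer, 408 bp upstream, was the only EcR summit within 500 bp of a start site, the distance called promoter here. It scored 264 at rank 1623, with 101 at rank 1937 in replicate 1 and 94.4 at rank 1804 in replicate 2. The farther, 611 bp upstream, scored 202 at rank 2376, with 60.6 at rank 3950 in replicate 1 and 79.7 at rank 2355 in replicate 2. Replicate 3 listed neither, so among the replicate lists only those of replicates 1 and 2 held these peaks. The sixth summit, at 6119666 and 12175 bp downstream of the EcR-RG start site, was the weakest at the gene with a score of 127 at rank 4230. Replicate 2 held it in its top list at rank 4288, replicate 1 ranked it 6874, outside its top list, and replicate 3 did not list it.

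**Figure D1:**
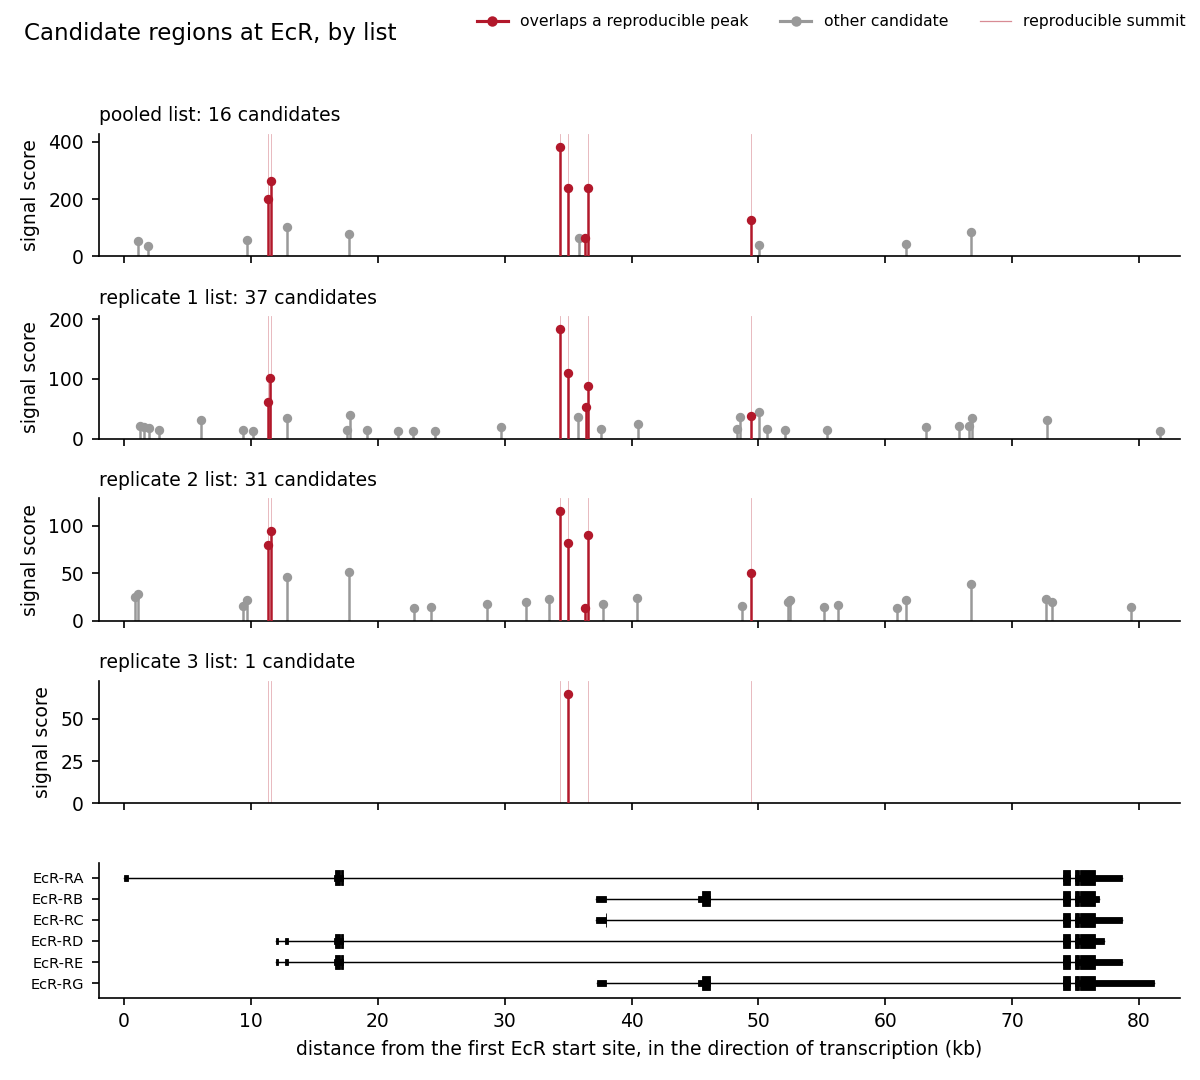
Signal score of every candidate region in the EcR window, by summit position in kb along the direction of transcription from the start of EcR-RA, in the pooled list and each replicate list, above the annotated transcripts (thick boxes are coding, thin boxes untranslated exons). Coloured regions overlap a reproducible peak and vertical lines mark the 6 reproducible summits. Replicates 1 and 2 hold 37 and 31 candidates over the window, and replicate 3 holds 1, in the middle cluster.

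Candidates that were not reproducible also lay along EcR. The pooled list held 16 candidates in the window, and the strongest outside the reproducible list, at 6156255 in the 5′ UTR of EcR-RD and EcR-RE, scored 101 at rank 5455. Replicate 2 ranked that region 4824, and a second one, at 6151385, stood at rank 4244, both inside its top list, while replicate 1 had no such region in its top list. Nearest to the EcR-RA start site, the pooled list had a weak candidate 1112 bp downstream with a score of 53.6 at rank 11484.

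usp, the partner subunit, carried 3 reproducible summits, and all were promoter summits. The gene (FBgn0003964, X, 2038798 to 2042311, minus strand) is 3514 bp long, with start sites for usp-RB and usp-RA, and it lies inside the transcribed span of Actn, the gene of alpha-actinin, an actin cross-linker. Both usp start sites had a summit upstream and close by. The summit at 2042499 lay 188 bp upstream of the usp-RB start, which is also the start of 4 Actn transcripts, and scored 142 at rank 3719. Replicate 1 gave it 54.1 at rank 4550, and replicate 2 gave it 74.0 at rank 2624. The summit at 2041467 lay 155 bp upstream of the usp-RA start, in the untranslated exon 2 of usp-RB, and scored 154 at rank 3368. In replicate 1 its region scored 59.0 at rank 4092, and in replicate 2 51.4 at rank 4228. The summit before usp-RB also lies within CG4313, a gene on the opposite strand, and the summit near usp-RA is 401 bp upstream of the CG4313 start. The 2 summits therefore cannot be assigned to usp alone, as they also lie within promoter distance of Actn or CG4313.

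The strongest of the 3, at 2036993, lay outside the usp gene body and 1805 bp past its end, with a score of 185 at rank 2668. It lay 374 bp upstream of the start of Actn-RH. Replicate 1 gave this region 74.6 at rank 3010, and replicate 2 gave 79.1 at rank 2377. Replicate 3 listed no candidate at any rank in the usp window, and its nearest summit was 7967 bp upstream of the usp-RB start, with a score of 140 at rank 367. That is nearly the position of the first reproducible summit beyond the window, 7969 bp from the gene at the moody promoter, which had a score of 609 at rank 350. On the other side the first reproducible summit beyond the window was 29004 bp from the gene. At EcR and tai the nearest reproducible summits beyond the windows were 11176 bp and 25643 bp from the gene, so no summit lay just outside the 2000 bp limit, and the Actn-RH summit was the only one near it from inside.

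**Figure D2:**
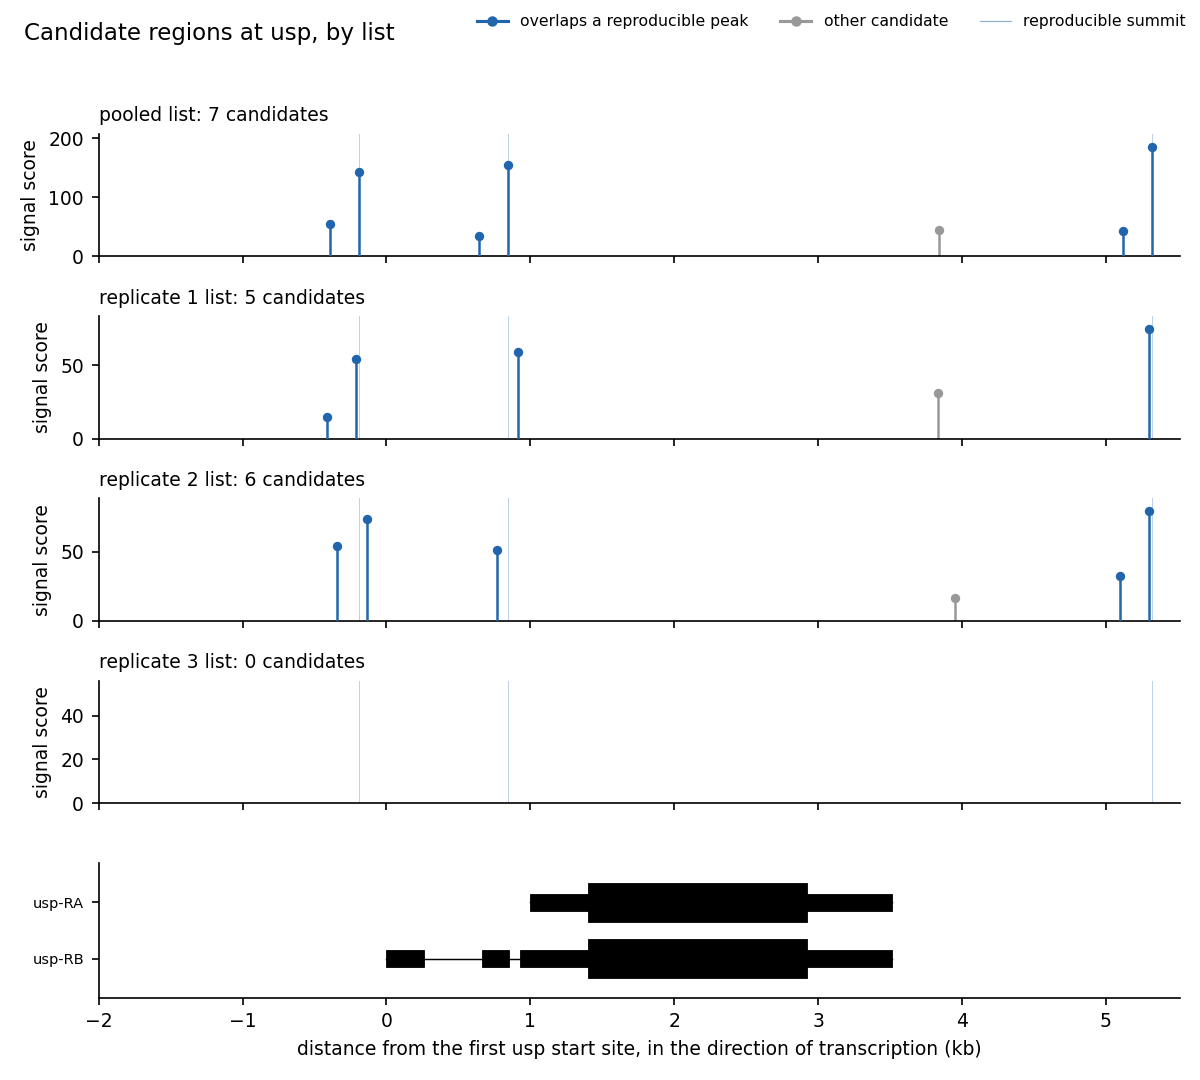
Signal score of every candidate region in the usp window, by summit position in kb from the usp-RB start site along the direction of transcription, in the pooled list and each replicate list, above the 2 transcripts (thick boxes are coding). Each of the 3 reproducible summits (vertical lines) has regions in replicates 1 and 2, and replicate 3 holds 0 candidates.

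tai, the coactivator, carried 6 reproducible summits, all intronic, among them the strongest peak at any of the 3 genes. The gene (FBgn0041092, 2L, 9166778 to 9250211, plus strand) has 2 start sites for 6 transcripts. The first intron held 1 summit, and the other 5 lay in the long intron that precedes the main coding exons, intron 2 of tai-RG and intron 3 of tai-RC. The strongest, at 9207322 and 30964 bp downstream of the start of tai-RC, tai-RE and tai-RF, scored 811 at rank 173. Replicate 1 gave it 346 at rank 149, replicate 2 gave 282 at rank 185 and replicate 3 gave 188 at rank 187. It was the strongest summit of the 3 genes in every list, and its ranks were alike in all 3 replicates.

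A further 2 summits lay before it, the nearer 602 bp away. The farther, at 9206520, scored 401 at rank 787, with 165 at rank 829 in replicate 1, 166 at rank 638 in replicate 2 and 79.6 at rank 975 in replicate 3. The nearer, at 9206720 and 200 bp from its neighbour, scored 111 at rank 4952, close to the end of the reproducible list. Replicate 2 had a region of its own there, with a score of 30.6 at rank 7934, whereas replicates 1 and 3 had only the neighbour's region, at ranks 829 and 975, reaching over it. The listing of this peak in every top list therefore came from regions whose summits lay at its neighbour, in replicate 2 as well.

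The other tai peaks were weaker. The summit at 9211469 scored 212 at rank 2211 and was in the top list of every replicate, at rank 2580 in replicate 1, 2699 in replicate 2 and 1752 in replicate 3. The most distal, at 9224695, scored 137 at rank 3878. Replicates 2 and 3 held it in their top lists at ranks 3057 and 2613, and replicate 1 ranked it 8396, outside its own. The nearest annotated start to this last summit was not tai's but that of aust, whose product acts in male meiosis, 26347 bp away. The summit in the first intron, at 9168507 and 1729 bp downstream of the start of tai-RD, tai-RG and tai-RH, scored 196 at rank 2474. Replicate 1 ranked it 1890 and replicate 2 ranked it 3932, and it was the 1 tai peak absent from replicate 3.

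**Figure D3:**
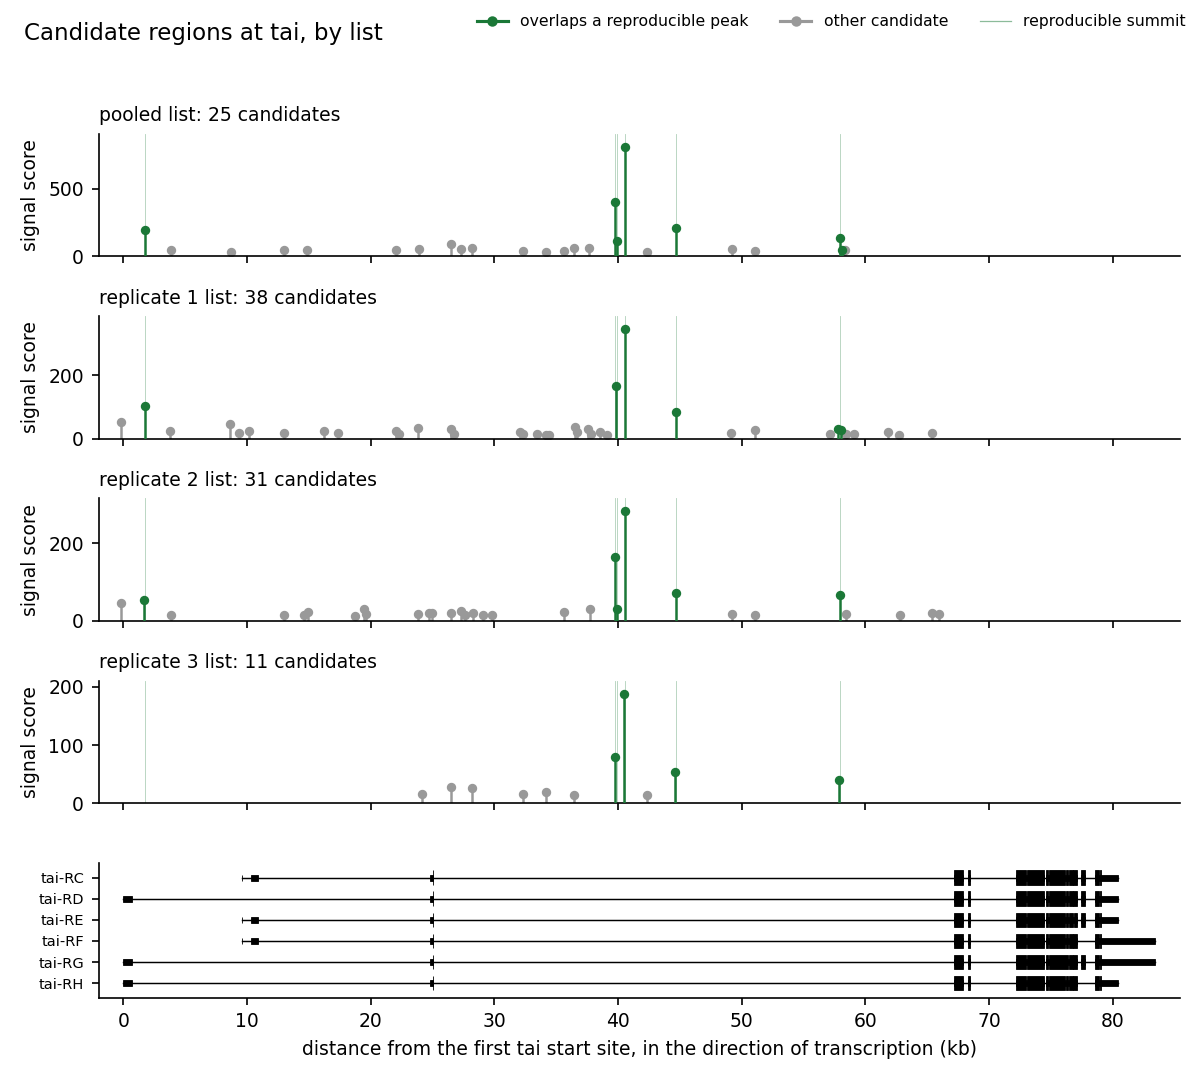
Signal score of every candidate region in the tai window, by summit position in kb from the first tai start site along the direction of transcription, in the pooled list and each replicate list, above the 6 transcripts (thick boxes are coding). The strongest region stands at the same place in all 4 lists, and the region at the first start site (0 kb) appears in replicates 1 and 2 but not in the pooled list.

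Neither tai start site had a reproducible promoter summit. At the first one, however, replicate 1 had a region with its summit 210 bp upstream, scoring 50.9 at rank 4906, and replicate 2 had one 163 bp upstream, scoring 46.0 at rank 4855. Both were in the top lists, and neither the pooled list nor replicate 3 held a candidate there. This start site lies back to back with that of CG9586. The CG9586 start was the nearest one to both regions, so they cannot be assigned to tai alone. Such regions were not confined to tai, since 310 of the 5056 top regions of replicate 1 (6.13%) overlapped a top region of replicate 2 and no pooled candidate. Of these 310, 215 (69.4%) had a promoter summit and 283 (91.3%) had no candidate in replicate 3. Over all reproducible peaks, a different set of regions, these shares were 23.8% and 16.4%. The shares over all top regions of replicate 1 are not given here. At the shared promoter of tai and CG9586 the reproducible list held no peak, though 2 of the 3 replicates listed a region there. Why the pooled list lacks this region is not stated in the sources used here and was not tested.

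In replicate 3 most tai peaks were listed and most EcR and usp peaks were not. No candidate of replicate 3 overlapped 9 of the 15 peaks, 5 at EcR, 3 at usp and 1 at tai, while over all reproducible peaks this held for 827 of 5056 (16.4%). In the top list of all 3 replicates were 5 of the 15 peaks, 1 at EcR, 0 at usp and 4 at tai, against 2863 of 5056 (56.6%) over all. Among the 4 at tai is the peak at 9206720, covered in the top lists only by its neighbour's regions. Replicates 1 and 2 showed no such gap, with 13 and 15 of the 15 in their top lists, against 84.6% and 84.2% of all reproducible peaks, while the top list of replicate 3 held 6, against 73.3%. Peaks without a replicate 3 candidate were more frequent among promoter peaks (27.5%) than among intron peaks (14.5%) of the whole list. The 5 unlisted EcR peaks comprised 1 promoter and 4 intron peaks, and their ranks ran from 855 to 4230. Strength did not separate listed from unlisted peaks over the whole list, where 16.3% of ranks 1 to 1000 and 16.4% of the later ranks had no candidate. The cause of this difference was not tested.

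**Figure D4:**
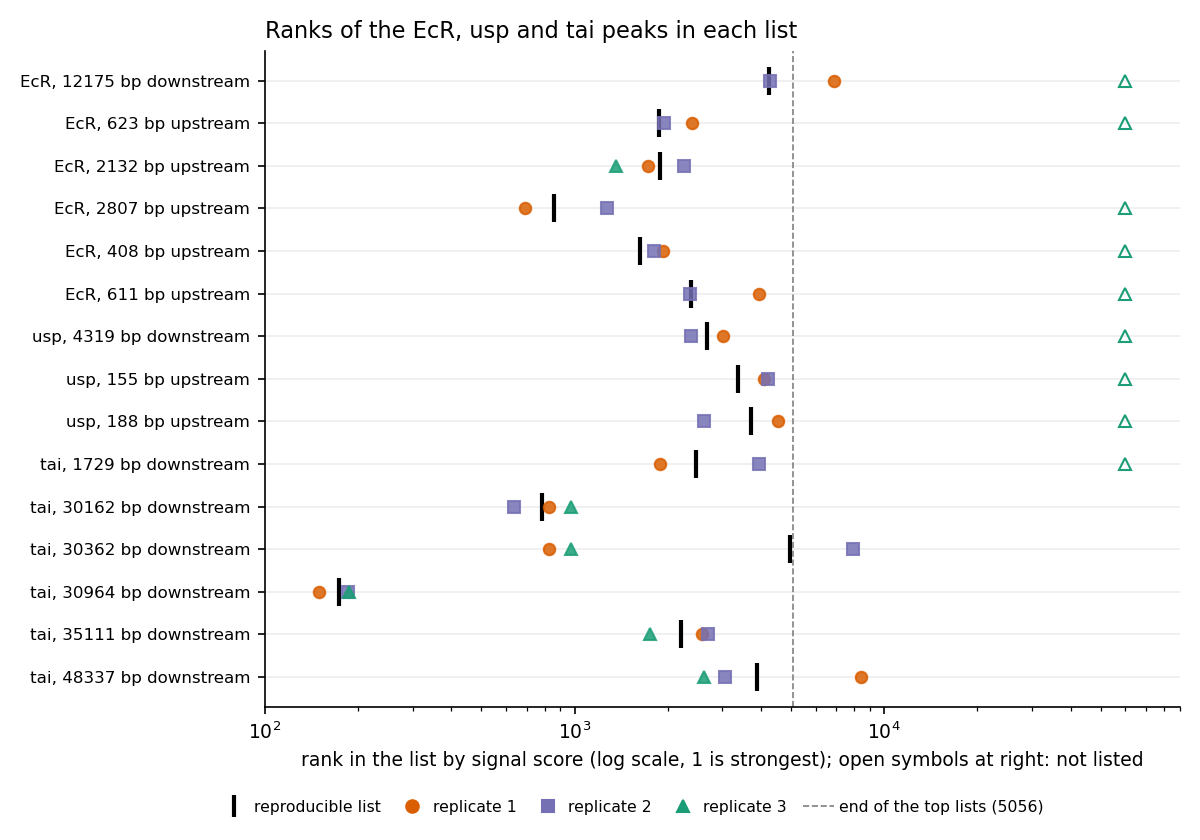
Rank of each of the 15 peaks by signal score (log axis, 1 is strongest) in the reproducible list and in each replicate, with each peak labelled by its distance from the nearest start site of its own gene. Open symbols at the right mark the 9 peaks without a candidate in replicate 3, and the dashed line marks the end of the top lists at rank 5056; the strongest tai peak lies at ranks 149 to 187 in all replicates.

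The number of summits was set against the number that the length of each window predicts, in 2-sided exact binomial tests over all 13945 protein-coding genes with Benjamini-Hochberg adjustment. None of the 3 genes passed an adjusted p of 0.05, whereas 65 genes (0.466%) had more summits and 6 (0.043%) fewer than predicted. EcR had 6 summits in 85215 bp where 3.22 were expected, a ratio of 1.86 (exact binomial p = 0.147, adjusted p = 1). tai had 6 in 87434 bp where 3.30 were expected, a ratio of 1.82 (exact binomial p = 0.154, adjusted p = 1). usp had 3 in 7514 bp where 0.284 were expected, a ratio of 10.6 (exact binomial p = 0.00308, adjusted p = 0.239). Its unadjusted p lay under 0.05, as did that of 713 of the 13945 genes. In the exact binomial test it was 0.124 with gene bodies only and 0.116 with pooled candidates as the expectation. The pooled candidates include the usp peaks themselves, so that setting does not measure density along the bases. The same test gave 0.0152 with 5 kb each side and 0.00261 with overlapping peaks merged. With only peaks in the top lists of replicates 1 and 2 it was 0.00129. In 4 other settings usp had 0 summits. Over all genes, 21.8% had at least 1 summit, 4.37% had 3 or more and 1.14% had 6 or more. Long windows hold more summits, and among the 127 genes with windows at least as long as that of EcR, 37.8% had 6 or more, as did 38.5% of the 122 at least as long as that of tai. Of the 4664 genes with windows at least as long as that of usp, 12.1% had 3 or more.

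Neighbouring peaks are not independent of each other, and the direction of 2 of the 3 ratios rested on peaks that replicate 3 did not list. Counting only peaks in every replicate's top list left 1 summit and a ratio of 0.55 at EcR, 0 summits at usp, and 4 summits and a ratio of 2.14 at tai. The tai count includes the peak at 9206720, which top regions covered only from its neighbour. Leaving out a replicate here means keeping only reproducible peaks in the top lists of both other replicates. The reproducible list itself still drew on all 3 replicates. Leaving out replicate 1 or replicate 2 in this way also left 1 summit at EcR and 0 at usp. With the stronger 2528 peaks the EcR ratio was higher, at 3.11 (5 summits, exact binomial p = 0.0241, adjusted p = 1), and usp had none. The usp ratio was 2.54 with pooled candidates as the expectation, 5.88 with windows of 5 kb each side, and 7.54 from 1 summit with the gene body only. The pooled candidates include the peaks at the 3 genes. That setting therefore measures how many candidates of a window were reproducible, and not how dense summits are along its bases. The 65 genes over the prediction became 81 with 5 kb each side, and 0 with pooled candidates in place of bases as the expectation. They became 34 without replicate 1, 33 without replicate 2 and 37 without replicate 3. The sets that leave out a replicate hold fewer peaks, so these lower counts cannot be ascribed to the replicate left out.

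**Figure D5:**
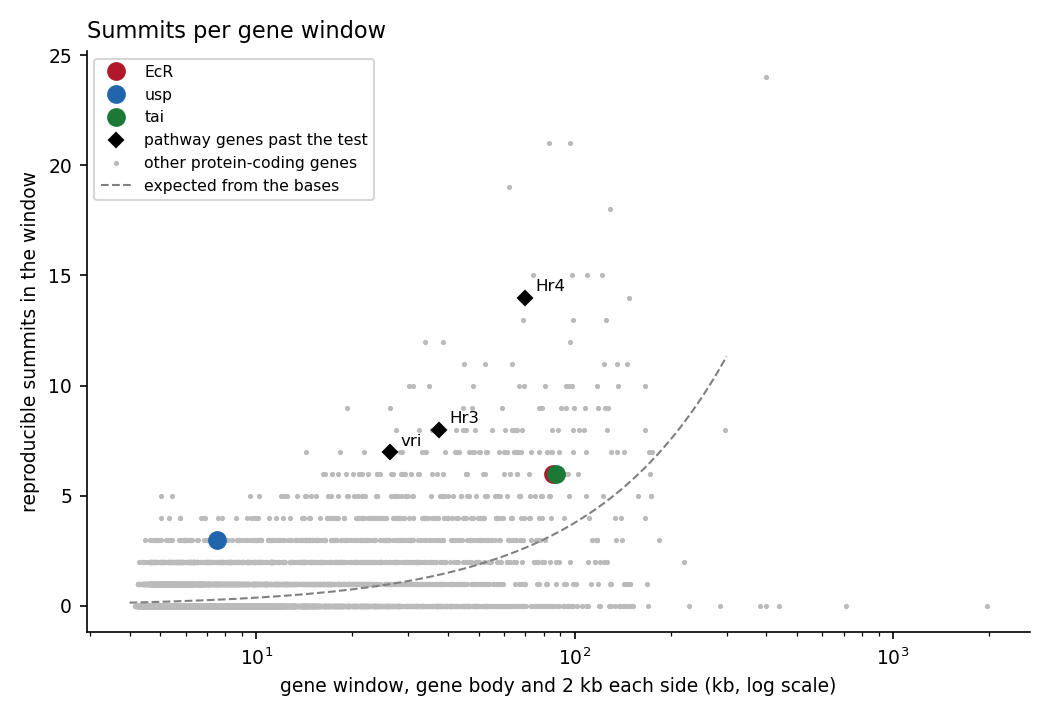
Number of reproducible summits against window length (log axis, kb) for 13945 protein-coding genes, with the number that window length predicts as a dashed line. EcR and tai, at 6 summits each, lie nearly on one point, and usp has 3 summits in a short window; Hr4, Hr3 and vri are the ecdysone pathway genes that passed the test.

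By position, 4 of the 15 summits were at promoters and 11 in introns, against 1204 (23.8%) and 2664 (52.7%) of all 5056. Intergenic summits made up 20.7% of the whole list, and the rule of choice leaves little room for them here. The split differed by gene, with all 3 usp summits at promoters and all 6 tai summits in introns. The short usp window also held starts of Actn, CG4313 and CG4325, and the summit at 2036993 lay at the Actn-RH start, outside usp. The share of each window within promoter distance or in introns was not measured. The scores of the 15 had a median of 202 and ran from 111 to 811, and the median over all reproducible peaks was 193.3.

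The bases at the summits were poor in G and C, as over the whole list. GC content in the 101 bases around the summit averaged 32.3% ± 8.29 (SD, n = 15 peaks), against 30.9% ± 7.12 over all reproducible peaks. In windows centred 400 bp to each side it averaged 46.5% at the 15 peaks and 45.1% over all. A summit with lower GC content than its own flanks was found for 14 of the 15, against 91.7% of all peaks. The exception was the distal tai summit printed above, at 53.5% against 34.7% in its flanks, and the lowest value, 15.8%, belonged to the strongest tai summit. These 2 extremes made tai the most variable of the genes, with 30.9% ± 12.6 (SD, n = 6 peaks), while EcR averaged 33.3% ± 4.96 (n = 6) and usp 33.3% ± 3.75 (n = 3).

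The 6 motifs searched on both strands of these windows were the TATA box TATAAA, the GAGA factor motif GAGAG, the nuclear receptor core site AGGTCA, the E-box CACGTG, and, by name, the replication-related element DRE and the inverted repeat bound by EcR and usp. TATAAA was present at 3 of the 15 summits, the 2 at the usp start sites and 1 at tai, against 25.2% of all summits and 8.58% of flanks. GAGAG was present at 1, against 8.19% of all summits and 16.5% of flanks. Mean GC content was 30.9% at all summits and 45.1% in their flanks, and the motif shares were not matched for it. No match to the other 4 was found at the 15 summits. They were rare at all summits too, with AGGTCA at 2.02%, the E-box at 0.435%, DRE at 0.218% and the inverted repeat at 0.0396%.

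The genes most like each of the 3 were found from the ranks of the strongest summit, as the smallest sum of absolute log2 rank differences over the replicates. Only genes listed in the same replicates were considered. For EcR, over replicates 1 and 2, these were CG5254 at a distance of 0.13 and Coq3 at 0.30. For usp, over the same 2 replicates, they were CG15922 at 0.06 and Ssdp at 0.07. The usp summit used was the one at 2036993, outside the gene body and 374 bp upstream of the Actn-RH start. For tai, over all 3 replicates, CG4666 and Tsp5D shared 1 summit at a distance of 0.38. The likeness covers the strongest summit only. CG5254, Coq3 and CG15922 had 1 summit each, Ssdp and CG4666 had 2 and Tsp5D had 3, against 6, 3 and 6 at EcR, usp and tai. Distances over 2 and over 3 replicates cannot be compared with each other.

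Other genes of the ecdysone pathway were taken from 4 lists of 50 genes in all, chosen with earlier results of these data known. Their counts are descriptive and cannot test for an excess in the pathway. Of the 50, 26 (52%) had at least 1 reproducible summit, against 21.8% of all protein-coding genes. Their windows were longer, with a median of 12039.5 bp against 6166 bp over all genes. Among the 4664 genes with windows at least as long as that of usp, 7514 bp, 39% had a summit. Among 10 other nuclear receptors of the cascade, 9 had a summit and the median was 2.5 summits per window, in windows of median length 40624.5 bp, against a median of 0 summits and 6166 bp over all genes. By the same exact binomial test, Hr4, a receptor that acts in the prepupal cascade, had 14 summits where 2.64 were expected (adjusted p = 0.000793), and Hr3, an early-late receptor that activates ftz-f1, had 8 where 1.41 were expected (adjusted p = 0.0294). The other 8 did not pass. Of 19 coregulators and partners, with windows of median length 12331 bp, 11 had a summit. Among them 1 passed the exact binomial test, vri, with 7 summits where 0.99 were expected (adjusted p = 0.0246). This gene encodes a bZIP transcription factor and no receptor cofactor. The Hr3 and vri calls were lost when only peaks in every replicate's top list were counted, with adjusted exact binomial p of 0.197 and 0.822, while that of Hr4 was kept at 0.00463. With the stronger 2528 peaks the adjusted exact binomial p was 0.0592 for Hr3 and 1 for vri, and Hr3 also missed the threshold with gene bodies only (0.079) and with overlapping peaks merged (0.100). Leaving out replicate 1, 2 or 3 gave adjusted exact binomial p of 0.252, 0.253 and 0.0382 for Hr3, 0.935, 0.379 and 0.507 for vri, and at most 0.00799 for Hr4. With pooled candidates in place of bases as the expectation, the adjusted exact binomial p was 0.772 for Hr4 and 1 for Hr3 and vri. That setting measures the reproducible share of candidates and not the density of summits.

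Of the 11 genes that make, import and clear the hormone, 2 (18.2%) had a summit, near the 21.8% of all genes. They were shd, which makes the active hormone, and Oatp74D, its importer, at 3 summits each. None of the 11 passed the exact binomial test, and of 10 early and late targets 4 had a summit and 0 passed. Unadjusted p under 0.05 was found for 5 of the 10 nuclear receptors, 3 of the 19 coregulators and partners, 1 of the 11 hormone genes and 1 of the 10 targets, against 713 of all 13945 genes. Median windows were 40624.5, 12331, 6668 and 12023.5 bp in these lists, in the same order, against 6166 bp over all genes. No share among genes with windows of like length was computed for these counts. As the lists were also chosen with earlier results of these data known, these counts do not test for a pathway excess.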

How the data were processed

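ChIP-seq peak lists of 3 replicates were used as deposited, in dm6. Per the file headers and deposited descriptions, the authors made each replicate's list from its alignment and a further file, a pooled list from all alignments, and the reproducible list by an irreproducible discovery rate (IDR) threshold. Neither aligner nor peak caller is named in these sources. Strength is the deposited signal score. The deposited −log10 q-value entered no result, because 75.9% of reproducible peaks were tied at its maximum. Without read counts, depth is unknown. The possible control experiment was not analysed here.

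Regions were matched by at least 1 bp. A replicate's value is that of the overlapping region with the nearest summit. Genes came from Ensembl release 115 (BDGP6 annotation 54). Promoter means within 500 bp of a protein-coding start site. Tests used Python 3.11.15 with scipy 1.17.1, numpy 2.4.6 and pandas 2.3.3, and were tested on simulated data. Members, pathway lists and motifs were chosen with earlier results of these data known. Named genes are the 3 members, those with the start site nearest to a summit, the 2 most alike per member, and pathway genes past the test; shd and Oatp74D were named after their values were seen. Alternatives covered windows, expectation, merging, thresholds, overlap and the omission of each replicate. In the summit count test, omission kept only the reproducible peaks in both other top lists.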

Additional observations from a re-analysis of the deposited data

How the results depend on the processing

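None of the 9 alternatives to the summit count test brought EcR, usp or tai past the threshold; adjusted p (exact binomial test) was 1 throughout for EcR and tai and 0.169 to 1 for usp. The tai ratio stayed between 1.42 and 2.42. That of EcR ranged from 0.488 to 3.11, was under 1 with peaks in every replicate's top list (0.549), highest with the stronger 2528 peaks, and spanned 0.488 to 2.11 leaving out each replicate. That of usp was 0 with the stronger peaks or with peaks in every top list, 2.54 with pooled candidates, 5.88 with 5 kb each side, and 0 to 14.4 leaving out each replicate. The 65 genes with more summits became 81 with 5 kb each side, 37 with gene bodies only and 36 with overlapping peaks merged. Their number was 19 with the stronger peaks, 29 with peaks in every top list and 33 to 37 leaving out each replicate. It was 0 with pooled candidates as the expectation, a set that includes the peaks at EcR, usp and tai. The 6 genes with fewer became 7 with 5 kb each side, 2 with the stronger peaks and 2 with peaks in every top list. They became 0 with pooled candidates and 4 to 5 leaving out each replicate. Promoter summits numbered 2 of 15 within 250 bp and 6 within 1000 bp. Leaving out each replicate, 5 to 13 of the 15 peaks were in both other top lists, and 13 without replicate 3. GAGAG was at 2 summits in windows of 100 bp each side. No paired analysis was possible because there was 1 group. Depth is unknown, so absence from a list is not absence of binding.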
